A study of Mus musculus with 128 samples.

Results

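The genes of oxidative phosphorylation were followed in mouse liver through fasting, feeding and 3 sugar drinks, with those of the nuclear genome set against those of the mitochondrial genome. Members were the protein-coding genes whose symbols follow the naming of the subunits of complexes I to V, which gave 105 of the 35275 genes in the count table. Of these, 92 are nuclear and 13 are mitochondrially encoded. The naming also admits 7 Ndufaf genes, which encode assembly factors of complex I and not subunits. Atp5sl, also known as such a factor (below), is counted by its symbol with the subunits of complex V. A filter on low counts kept 90 nuclear and all 13 mitochondrial members for testing. The remaining 2, Cox7b2 and Cox8c, are known for expression in testis, and Cox8c had no read in any library, which allows up to 0.162 CPM, the count scaled to library size, in the shallowest library.

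Liver RNA came from wild-type male mice of 2 inbred strains, BALB/c and C57BL6/J, bought at 8 weeks of age and trained for 1 week to a timed fast and meal. After a fast of 21 h, mice received regular chow, supplying 10% of its calories as fat and 64.5% as carbohydrate, and a drink that was water with 20% glucose, 20% sucrose or 20% fructose, or water alone. Livers were taken at 3, 6 and 12 h after feeding began for every drink, and at 0 h, before feeding, for water, which gives 13 conditions in each strain. Drinking water was withheld from 4 pm on the day of the experiment, and chow and drink were given at 7 pm. All groups thus share the training, the fast and the time without water, all fed groups the chow, and the fed groups on water are the reference of the sugar groups. The 0 h groups are the only unfed ones, so time after feeding, clock time and the return of drink cannot be told apart. Of the 26 groups, 24 hold 5 libraries and 2 hold 4, and the 63 BALB/c and 65 C57BL6/J libraries carried 18541545 to 43118895 counts each. Replicates are read as separate mice, which is not stated outright, so p-values measure only how far these libraries spread.

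Oxidative phosphorylation couples the passage of electrons through complexes I to IV of the inner mitochondrial membrane to ATP synthesis by complex V. The mitochondrial genome encodes core subunits of complexes I, III, IV and V, while complex II and all other subunits are encoded in the nucleus, translated in the cytosol and imported. In liver these complexes oxidise the NADH and FADH2 made from fatty acids during fasting and from carbohydrate after a meal.

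Hepatocyte markers summed to 51803 to 145736 CPM and were high in every library. In bulk tissue, fewer cells of a type and less RNA per cell cannot be told apart. Summed markers of skeletal muscle exceeded 50 CPM in 67 libraries, and kidney, adrenal or pancreas markers stood apart in 7 libraries taken at 6 h. The profiles of 4 libraries lay nearer another feeding time than their own: C57BL6/J water at 0 h, replicate 2 (nearer 3 h), BALB/c water at 12 h, replicate 1 (nearer 0 h), and BALB/c fructose at 6 h, replicates 3 (nearer 3 h) and 4 (nearer 12 h). The names of 34 libraries end in the letter a, a mark left unexplained by the labels, and the other 94 do not. Of the 105 members, 30 overlap another listed gene, and for these and for genes with near-identical copies the split of reads is uncertain. Among genes known to respond to a meal, Pck1, which encodes the gluconeogenic enzyme PEPCK, had a median of 391 CPM at 3 h on water, against 3775 CPM at 0 h (edgeR adjusted p = 3.24e-08).

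Levels per length differed between the genomes and among the members of a complex. On the deposited FPKM scale, the highest mitochondrial members by median over all libraries were mt-Co1, the catalytic core of complex IV, at 12396 FPKM, mt-Cytb of complex III at 9233 FPKM and mt-Nd1 of complex I at 7508 FPKM. The highest nuclear member of each complex, with complexes assigned by symbol, was far lower. Ndufa4, counted with complex I by its symbol but now known as a complex IV subunit, stood at 1017 FPKM. Sdhb, the iron-sulphur subunit of complex II, stood at 226 FPKM, and Uqcr11 of complex III at 618 FPKM. Cox6a1, the widely expressed form of a complex IV subunit, stood at 936 FPKM, and Atp5b, the catalytic beta subunit of complex V, at 705 FPKM. Ndufaf2 led the 7 Ndufaf assembly factors at 24.0 FPKM, so all 7 of these were below the median nuclear subunit of complex I, at 129 FPKM.

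The mitochondrial members did not form 1 class by level. mt-Co2 had 208 FPKM, mt-Co3 188 FPKM, mt-Atp6 167 FPKM and mt-Nd3 81.9 FPKM, although mt-Co2 and mt-Co3 encode core subunits of the same complex as mt-Co1. mt-Nd4l had 16.2 FPKM and mt-Atp8, which overlaps mt-Atp6, 0.844 FPKM. A stretch of nuclear chromosome 1, listed as 7 genes between positions 24611535 and 24616197 (mm10), holds copies of mt-Co2, mt-Atp6, mt-Co3, mt-Nd3 and mt-Nd4l over nearly their whole length, and of parts of mt-Co1 and mt-Nd4, at 99.7% to 100% identity. The copies of mt-Co2, mt-Co3 and mt-Atp6 had about as many counts as the genes: the copy of mt-Co2 had a median of 3811 counts and mt-Co2 itself 3236. The levels of these genes are therefore levels of whichever reads the authors' counting gave to the mitochondrial copy.

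In the pooled counts, the 13 mitochondrial members took 3.03% to 14.1% of a library's counts and the 92 nuclear members 1.298% to 3.13%. The mitochondrial sum varied far more among libraries of 1 group. The median within-group SD of the log2 sum was 0.489 for the mitochondrial members and 0.185 for the nuclear ones, and the SD of the 26 group means was 0.205 and 0.105. Gene by gene, the median within-group coefficient of variation was 37.8% over the mitochondrial members and 17.9% over the nuclear ones. Group means of 79 of 90 nuclear members lay within a 2-fold range over all strains, drinks and times, and those of 6 of 13 mitochondrial members did. The spread was narrower in the libraries whose names end in a: the SD of the log2 ratio of the mitochondrial to the nuclear sum was 0.17 in BALB/c and 0.18 in C57BL6/J libraries with the letter, and 0.47 and 0.58 in those without it. The part of whatever the letter marks in the spread was not tested further.

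**Figure D1:**
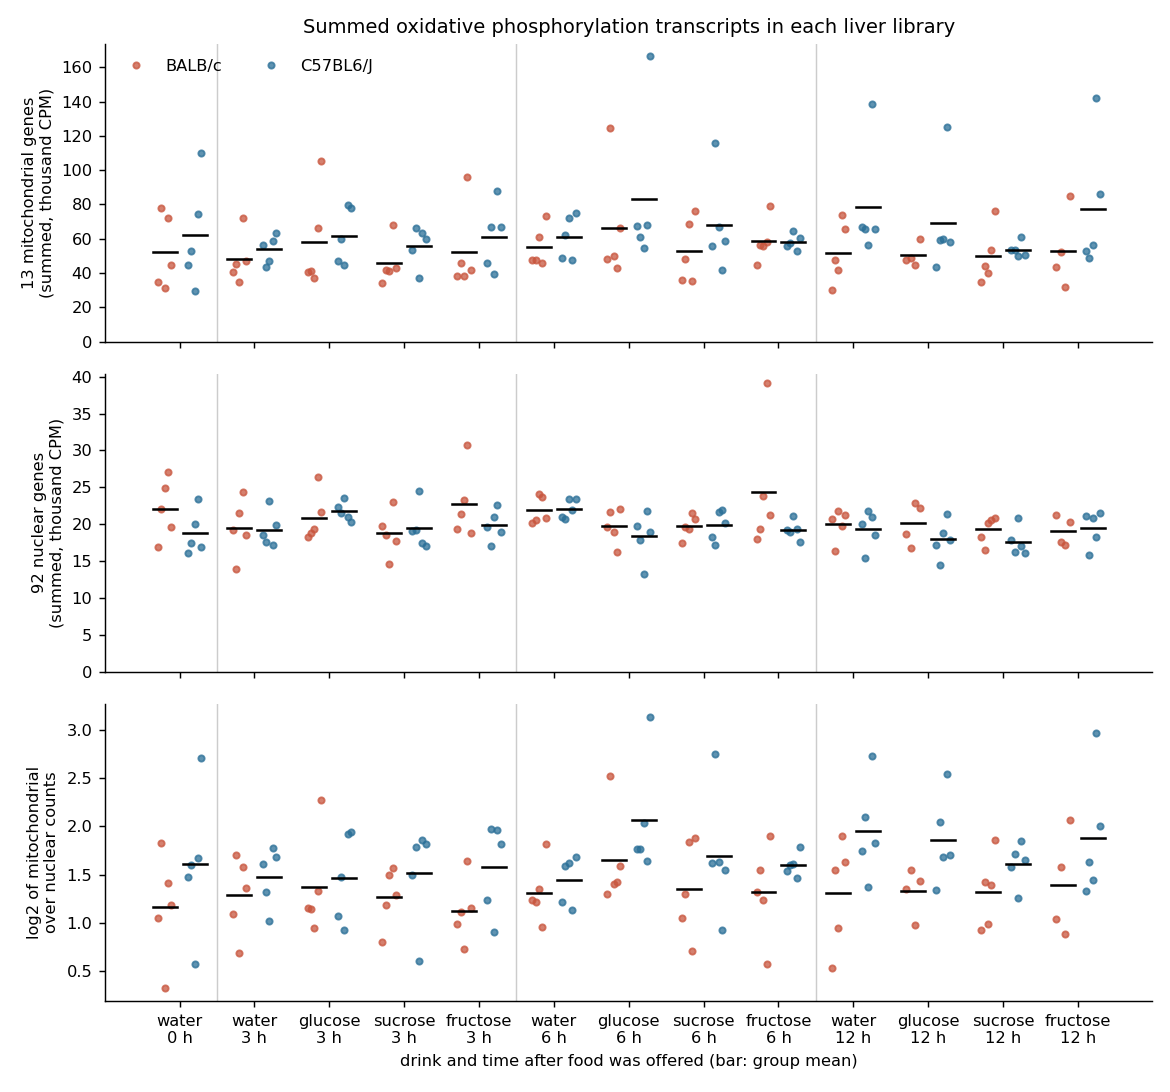
Summed level of the 13 mitochondrial members (top) and the 92 nuclear members (middle), in CPM, and the log2 ratio of both (bottom), for each library (points, by strain) over the 13 conditions, with the group mean as a bar. Mitochondrial sums scatter more within groups, up to 166727 CPM in 1 C57BL6/J library on glucose at 6 h.

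Few subunit genes differed between mice fed with water to drink and mice at 0 h. At 3 h, 3 nuclear members rose and 3 fell against 0 h (10 libraries each, both strains together), 6 of 90 beside 25.4% called among all 16886 genes tested. The median log2 fold change of the nuclear members was -0.08, beside -0.01 over all genes. None of the 13 mitochondrial members was called by edgeR or by DESeq2, and 0 had an unadjusted edgeR p under 0.05, with a median log2 fold change of -0.21. The 95% interval of the fold change lay within 1.5-fold either way for 76 of the 90 nuclear members but for 4 of the 13 mitochondrial ones, against 38.4% of all genes. Most nuclear subunit genes were thus held to a narrow range by these data and most mitochondrial ones were not, the median standard error being 0.13 and 0.27.

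**Figure D2:**
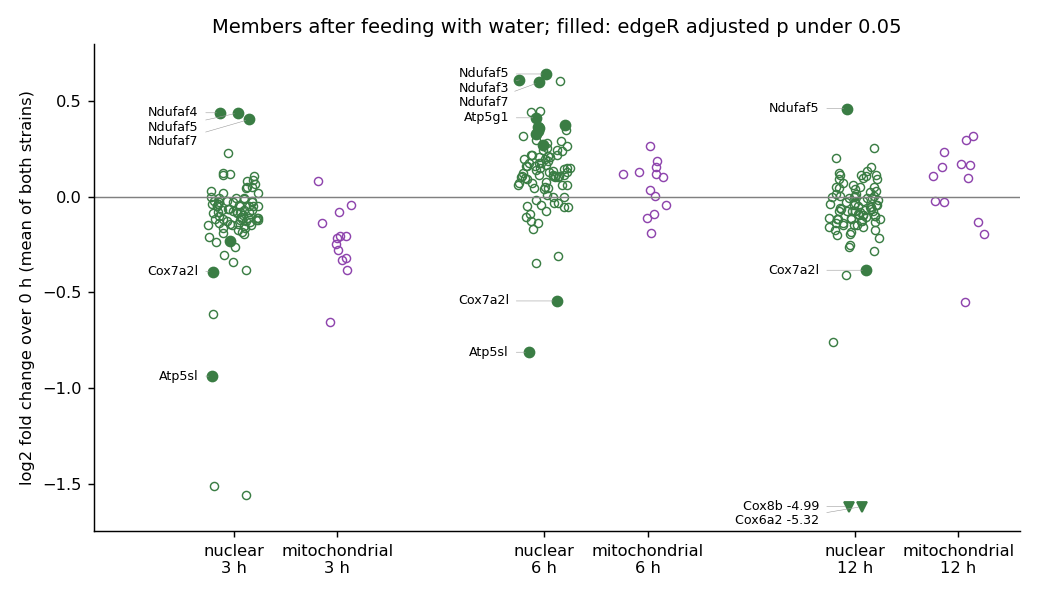
Log2 fold change of each member on water at 3, 6 and 12 h against 0 h, nuclear and mitochondrial members apart. Filled points passed the edgeR test at an adjusted p under 0.05, and triangles mark Cox8b (-4.99) and Cox6a2 (-5.32), which lie below the axis. All mitochondrial points are open.

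The C57BL6/J library at 0 h that lay nearer 3 h is among the 10 libraries that each fed time is set against, and without the 4 such libraries 7, 13 and 5 nuclear and 0 mitochondrial members were called at 3, 6 and 12 h.

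Of the 6 genes called at 3 h, 4 are Ndufaf genes, and Atp5sl, taken up below, is also known as a complex I assembly factor. Ndufaf4 had 66.8 to 102 CPM at 3 h (lowest and highest, median 79.0), against 43.2 to 81.6 CPM at 0 h (median 52.9). All 10 fed libraries lay above the 0 h mean of their strain, although the ranges overlapped, and the log2 fold change (± SE) came to 0.44 ± 0.11 (edgeR adjusted p = 0.00109). Ndufaf7, a methyltransferase that modifies a complex I subunit, had a median of 16.4 CPM at 3 h, against 12.7 CPM at 0 h, with a log2 fold change of 0.41 ± 0.10 (edgeR adjusted p = 0.00124). Ndufaf5, which hydroxylates another complex I subunit, had medians of 6.42 CPM at 3 h and 4.39 CPM at 0 h, a log2 fold change of 0.44 ± 0.12 (edgeR adjusted p = 0.00352). Ndufaf6 went the other way, with medians of 14.3 CPM at 3 h and 15.9 CPM at 0 h (log2 fold change -0.23 ± 0.09, edgeR adjusted p = 0.0442). The call of Ndufaf6 was lost without replicate number 2, 3 or 4, that of Ndufaf5 without number 3 or 5, and that of Ndufaf4 without number 5, each number being left out of every group at once. The call of Ndufaf6 was also lost with no low-count filter (edgeR adjusted p = 0.0666), in the libraries without the letter a (0.0809) and with only the libraries of the comparison (0.130), and that of Ndufaf5 with only those libraries (0.108).

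The other 2 genes called at 3 h fell. Atp5sl, whose symbol recalls ATP synthase but whose product is now known as a factor for complex I assembly (Dmac2), had 26.3 to 56.7 CPM at 3 h (median 31.2), against 24.6 to 98.2 CPM at 0 h (median 67.5). All 10 fed libraries lay below the 0 h mean of their strain, and the ranges overlapped through the lowest 0 h value, 24.6 CPM in C57BL6/J replicate 2, the library that lay nearer 3 h (log2 fold change -0.94 ± 0.16, edgeR adjusted p = 2.24e-06). Cox7a2l, which joins complexes III and IV into supercomplexes in some strains, had 78.5 to 108 CPM at 3 h (median 97.2), against 91.2 to 158 CPM at 0 h (median 130.1). It was below the 0 h mean in all 10 libraries (log2 fold change -0.39 ± 0.11, edgeR adjusted p = 0.00388).

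At 6 h on water, 10 nuclear members rose and 2 fell, 12 of 90 beside 28.8% of all genes, and again 0 mitochondrial members were called by edgeR or DESeq2, with 0 at an unadjusted edgeR p under 0.05. The median log2 fold change was 0.13 for the nuclear members and 0.10 for the mitochondrial ones, beside -0.00 over all genes. Ndufaf7, Ndufaf3 and Ndufaf5 had the highest log2 fold changes among the calls, 0.60 ± 0.10, 0.61 ± 0.12 and 0.64 ± 0.12 (SE), with edgeR adjusted p of 1.28e-06, 9.2e-06 and 1.16e-05. Ndufaf3 had 15.7 to 24.6 CPM at 6 h (median 21.0), against 9.27 to 18.0 CPM at 0 h (median 13.2). Ndufaf1 also rose, so that 4 of the 7 Ndufaf genes were higher at 6 h. The remaining 6 that rose were small or accessory subunits: Ndufab1, the mitochondrial acyl carrier protein, Ndufa12, Ndufa8 and Ndufs5 of complex I, Cox7b of complex IV and Atp5g1, which encodes the membrane c subunit of complex V. Ndufab1 was the 1 member whose ranges did not overlap, with 141 to 164 CPM at 6 h (median 153), against 91.4 to 137 CPM at 0 h (median 123). The gene gained 0.34 ± 0.08 on the log2 scale (edgeR adjusted p = 0.00048). Atp5sl and Cox7a2l were again lower, with medians of 37.3 and 87.4 CPM at 6 h and log2 fold changes of -0.81 ± 0.16 and -0.54 ± 0.11 (edgeR adjusted p = 3.21e-05 and 3.82e-05).

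The count at 6 h depended on single replicates: without number 5 it was 6, when Ndufa12 (edgeR adjusted p = 0.109), Ndufa8 (0.134) and Atp5g1 (0.126) were among those lost, and without number 4 it was 21. Of the 10 water libraries at 6 h, BALB/c replicate 1 carried kidney markers at 1002 CPM and C57BL6/J replicate 2 adrenal markers at 652 CPM. Without the 7 libraries with such markers the count at 6 h was again 12, 10 higher and 2 lower.

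At 12 h on water, 1 nuclear member was higher and 3 lower than at 0 h, beside 17.6% of all genes called, and 0 mitochondrial members were called by edgeR or DESeq2, with 0 at an unadjusted edgeR p under 0.05. Ndufaf5 was still higher, with medians of 6.70 CPM at 12 h and 4.39 CPM at 0 h (log2 fold change 0.46 ± 0.12, edgeR adjusted p = 0.00327), a call lost with only the libraries of the comparison (0.108). Cox7a2l was still lower, at 96.7 CPM at 12 h, against 130.1 CPM at 0 h (log2 fold change -0.38 ± 0.11, edgeR adjusted p = 0.00722), a call lost without replicate number 3. Atp5sl was no longer called, with a median of 57.1 CPM at 12 h. The median log2 fold change was -0.06 for nuclear and 0.11 for mitochondrial members, beside -0.01 over all genes. The other 2 calls, Cox6a2 and Cox8b, are taken up with the muscle isoforms.

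Differences between the strains in these responses were not detected. Tests of the strain by feeding interaction called 0 members at any time, beside 0.338%, 0.302% and 0.278% of all genes at 3, 6 and 12 h, by edgeR and likewise by DESeq2. At an unadjusted edgeR p under 0.05 there were 1, 0 and 1 nuclear and 0 mitochondrial members. The lowest edgeR adjusted p was 0.428 at 3 h for Cox6a2, 0.631 at 6 h for Ndufb2 and 0.379 at 12 h for Ndufaf7. At 12 h the mitochondrial members had a median log2 fold change of -0.17 in BALB/c and 0.36 in C57BL6/J, with wide intervals that leave such a difference undetectable here.

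The ratio of the mitochondrial to the nuclear sum varied widely within the groups on water. In BALB/c on water the log2 ratio averaged 1.16 ± 0.55, 1.28 ± 0.41, 1.31 ± 0.32 and 1.31 ± 0.56 at 0, 3, 6 and 12 h (SD, n = 5 each). In C57BL6/J on water it averaged 1.60 ± 0.76, 1.48 ± 0.31, 1.45 ± 0.25 and 1.95 ± 0.50 at 0, 3, 6 and 12 h (SD, n = 5 each). Fed minus 0 h, the means differed by 0.12, 0.15 and 0.15 in BALB/c and by -0.13, -0.16 and 0.35 in C57BL6/J at 3, 6 and 12 h, and these differences were not tested.

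The promoters of Ndufaf4, Ndufaf5 and Atp5sl are shown because these 3 genes were called at 3 h on water and hold motifs among those searched. Each runs from 250 bases before to 50 bases after the annotated start (RefSeq, GRCm38.p6, plus strand in all 3), and capitals mark exact matches to the motifs searched on both strands. Ndufaf4 (chr4:24897833-24898132) and Ndufaf5 (chr2:140170396-140170695) each hold the NRF1 motif, whose factor is known to act on nuclear respiratory genes. It begins at base -113 in Ndufaf4 and at base 17 after the start in Ndufaf5. Atp5sl (chr7:25619164-25619463) holds the CCAAT box, the E-box CACGTG, the FoxO motif TGTTTAC and the YY1 motif, in this order.
Ndufaf4: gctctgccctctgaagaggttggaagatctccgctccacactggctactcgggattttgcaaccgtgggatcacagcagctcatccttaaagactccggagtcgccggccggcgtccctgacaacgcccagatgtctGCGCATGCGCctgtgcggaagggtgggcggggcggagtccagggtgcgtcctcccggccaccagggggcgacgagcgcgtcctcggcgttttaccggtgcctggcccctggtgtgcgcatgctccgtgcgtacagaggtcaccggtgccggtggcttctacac
Ndufaf5: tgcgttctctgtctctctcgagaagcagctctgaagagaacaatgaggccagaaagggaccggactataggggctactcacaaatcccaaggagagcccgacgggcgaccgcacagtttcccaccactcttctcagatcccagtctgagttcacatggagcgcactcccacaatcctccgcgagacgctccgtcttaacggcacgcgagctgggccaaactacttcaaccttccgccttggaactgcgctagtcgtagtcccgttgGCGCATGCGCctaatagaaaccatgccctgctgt
Atp5sl: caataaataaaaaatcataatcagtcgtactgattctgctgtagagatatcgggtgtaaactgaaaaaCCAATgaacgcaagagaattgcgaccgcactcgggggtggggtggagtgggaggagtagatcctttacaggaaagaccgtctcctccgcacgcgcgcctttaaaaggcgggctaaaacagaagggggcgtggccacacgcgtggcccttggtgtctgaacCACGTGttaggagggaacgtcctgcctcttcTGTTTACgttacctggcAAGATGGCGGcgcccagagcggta

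Promoters of 76 of the 92 nuclear members were matched in the same table. The NRF1 motif stood in 7 of these, or 9.21%, beside 1.83% of the 12262 promoters of genes tested and 0.977% of all 27025 promoters. The YY1 motif stood in 5, or 6.58%, beside 1.82% of tested genes, and the ETS motif CCGGAAG in 16, or 21.1%, beside 16.2%. The FoxO motif stood in 3.95% of member promoters and 2.63% of those of tested genes, and the CREB motif TGACGTCA in 5.26% and 3.03%. The E-box, in 9.21% and 9.62%, and CCAAT, in 44.7% and 38.2%, were about as frequent in both. The motifs were counted independently of each other where they overlap. Ndufaf7 and Cox7a2l held none of the 7 motifs in this window.

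The time course over all drinks gave the clearest change of a single member. Ndufaf4 had medians on water of 52.9, 79.0, 71.9 and 46.4 CPM at 0, 3, 6 and 12 h. With all drinks together it had 27.4 to 72.4 CPM at 12 h (38 libraries, median 42.7), against 64.6 to 112 CPM at 3 h (40 libraries, median 80.8). All 38 libraries at 12 h lay below the 3 h mean of their strain and drink, and the ranges overlapped only between 64.6 and 72.4 CPM (log2 fold change -0.91 ± 0.06, edgeR adjusted p = 1.42e-28). Its medians at 12 h were 41.7 CPM on glucose, 40.9 CPM on sucrose and 42.3 CPM on fructose, close to the 46.4 CPM on water.

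In all, 4 nuclear members were higher and 22 lower at 12 h than at 3 h over the 4 drinks, 26 of 90 beside 54.2% of all genes. Mitochondrial members gave 0 calls by edgeR or DESeq2, with 1, mt-Nd5, at an unadjusted edgeR p under 0.05 (edgeR adjusted p = 0.075). The count of mitochondrial members was 2 with the replicate number as a block, 1 with only the libraries of the comparison and 1 without replicate number 2, all higher at 12 h. Atp5s, which encodes the ATP synthase coupling factor B, rose at 12 h, with a median of 8.32 CPM at 12 h and 4.86 CPM at 3 h, and stood above the 3 h mean in 36 of 38 libraries (log2 fold change 0.74 ± 0.08, edgeR adjusted p = 2.2e-15). Atp5sl, with medians of 49.6 CPM at 12 h and 35.2 CPM at 3 h, rose by 0.47 ± 0.08 on the log2 scale (edgeR adjusted p = 5.25e-07). Ndufa4l2, a low-level relative of Ndufa4 known from hypoxia, and Ndufaf1 were the remaining genes that rose.

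Apart from Ndufaf4 and 4 isoform genes (Cox6a2, Cox8b, Cox7a1 and Cox6b2), the 17 members lower at 12 h than at 3 h changed by small amounts, with log2 fold changes of -0.28 to -0.11. Among them were Ndufb10 (-0.28 ± 0.07, edgeR adjusted p = 0.000161) and Ndufv1, Ndufv2, Ndufs3 and Ndufs7 of the electron-entry arm of complex I. Uqcrc1, a core protein of complex III, had 212 to 365 CPM at 12 h (median 281), against 226 to 485 CPM at 3 h (median 317), and was lower in 35 of 38 libraries (log2 fold change -0.19 ± 0.04, edgeR adjusted p = 5.03e-05). Complex V gave Atp5d, Atp5a1, Atp5g2 and Atp5g3, and complex II gave Sdhc. In the 94 libraries whose names lack the letter a, 15 members were called in place of 26, 5 higher and 10 lower.

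**Figure D3:**
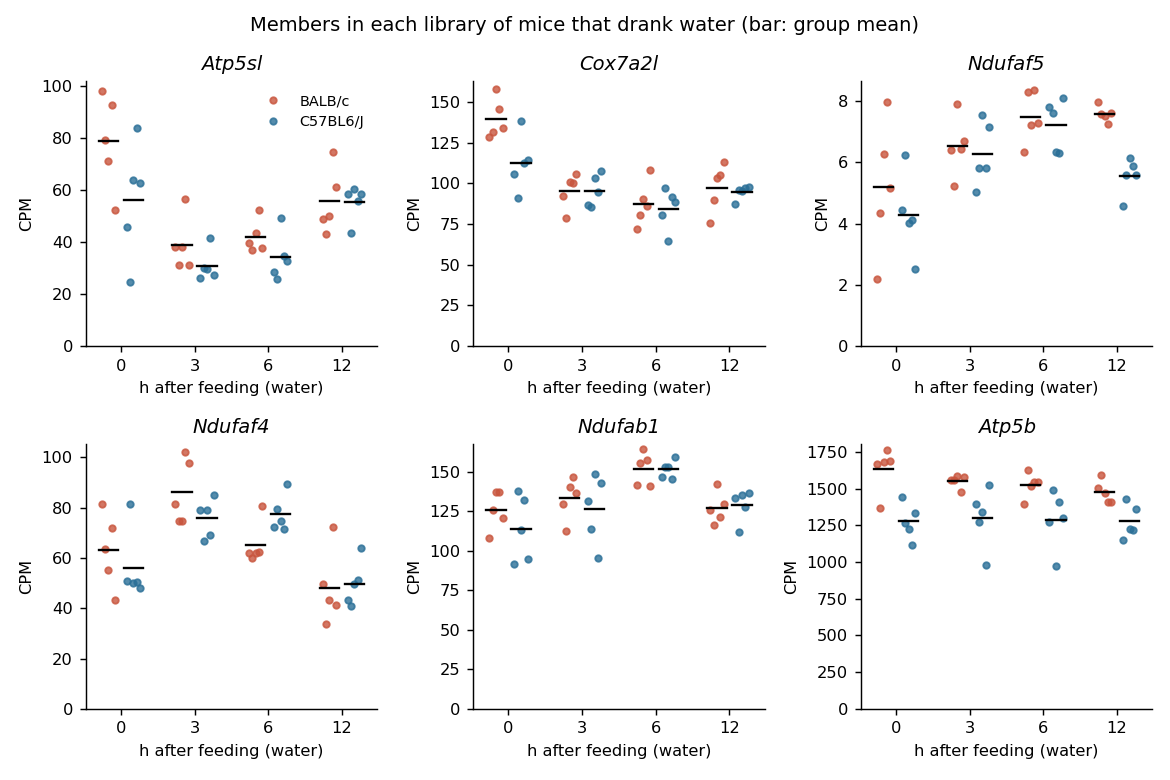
Levels of Atp5sl, Cox7a2l, Ndufaf5, Ndufaf4, Ndufab1 and Atp5b in CPM in each library of mice on water (points, by strain), by hours after feeding began, with the group mean as a bar. Ndufaf4 has its higher medians at 3 and 6 h (79.0 and 71.9 CPM), while Atp5sl has its lower ones there (31.2 and 37.3 CPM).

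Few members were called between a sugar drink and water, in comparisons that called 0.00592% to 6.71% of all genes. Where that share is near 0, a count of 0 members called is no result about the members. Glucose against water called 0 members at 3, 6 and 12 h by edgeR, beside 0.19%, 0.906% and 0.0651% of all genes. At an unadjusted edgeR p under 0.05 there were 4, 30 and 0 nuclear and 0, 2 and 0 mitochondrial members, and DESeq2 called 0, 1 and 0 members. The 30 of 90 at 6 h stood beside 2332 of 16886 genes at that unadjusted p and went with a median log2 fold change of -0.22 over the nuclear members and 0.26 over the mitochondrial ones, and both glucose groups at 6 h held a library with an outlying mitochondrial sum. Of the 7 libraries with markers of other tissues, 5 are in this comparison: on glucose, BALB/c replicate 3 (kidney), C57BL6/J replicates 3 (pancreas) and 5 (adrenal), and on water the 2 given above. Without the 7 libraries edgeR again called 0 members, and the part of these tissues in the 30 was not tested. Sucrose against water likewise called 0 members by edgeR, beside 2.92%, 1.14% and 0.00592% of all genes, with 4, 20 and 0 nuclear and 0 mitochondrial members at an unadjusted edgeR p under 0.05, and DESeq2 called 1, 0 and 0. For sucrose, and for fructose below, counts at an unadjusted p stand without the share of all genes and are no result about the members.

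Fructose against water called 1 member at 3 h, 1 at 6 h and 0 at 12 h, beside 6.71%, 1.23% and 0.00592% of all genes. At 12 h, 2 nuclear members had an unadjusted edgeR p under 0.05 and DESeq2 called 0, and no mitochondrial member was called at any time by either tool, with 0 at an unadjusted edgeR p under 0.05. Atp5s had 2.86 to 4.90 CPM on fructose at 3 h (median 4.17), against 4.11 to 10.8 CPM on water (median 5.64). All 10 fructose libraries lay below the water mean of their strain, and the log2 fold change was -0.57 ± 0.15 (edgeR adjusted p = 0.00782), a call lost without replicate number 1 (0.0573) or 4 (0.088). Ndufaf7 had 12.3 to 16.4 CPM on fructose at 6 h (median 14.6), against 12.9 to 21.2 CPM on water (median 19.3), with a log2 fold change of -0.39 ± 0.10 (edgeR adjusted p = 0.0271) and a call lost without any 1 of the 5 replicate numbers and without the 7 libraries with markers of other tissues (0.0513).

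The tissue-specific isoforms of complex IV subunits were far lower than the widely expressed forms. Cox4i1, Cox6a1, Cox6b1, Cox7a2 and Cox8a, the widely expressed forms, had median levels of 683, 936, 624, 330 and 734 FPKM. Their relatives Cox4i2, known from lung and hypoxia, Cox6a2, Cox7a1 and Cox8b, the forms of heart and skeletal muscle, and Cox6b2, known from testis, had 0.216, 1.68, 14.6, 2.97 and 2.62 FPKM. The value of Cox6b2 is pooled over both strains, whose ranges did not overlap (below), and describes neither strain. Of the 3 genes for subunit c of complex V, Atp5g3 had 676 FPKM, Atp5g2 125 FPKM and Atp5g1 57.2 FPKM, and Ndufa4l2 had 0.976 FPKM beside 1017 FPKM for Ndufa4.

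Cox6a2 had 0 to 0.405 CPM at 12 h on water (median 0.0428), against 0 to 9.62 CPM at 0 h (median 5.73), and Cox8b had 0 to 0.474 CPM (median 0.118), against 0 to 11.1 CPM (median 4.00). The log2 fold changes were -5.32 ± 0.98 and -4.99 ± 0.93 (edgeR adjusted p = 1.52e-05 and 1.96e-05). At 12 h against 3 h over all drinks they were -5.35 ± 0.53 and -4.77 ± 0.49 (edgeR adjusted p = 1.26e-15 and 4.87e-15), and Cox7a1 fell by 0.52 ± 0.16 on the log2 scale (edgeR adjusted p = 0.0044), a call lost without replicate number 4. Markers of skeletal muscle moved with these genes. The 14 markers summed to over 50 CPM in 6 of 10 libraries at 0 h, 27 of 40 at 3 h, 33 of 40 at 6 h and 1 of 38 at 12 h. Cox6a2 had a median of 7.38 CPM in the 67 libraries over 50 CPM and 0.0913 CPM in the 61 others. Cox8b had medians of 7.13 and 0.136 CPM in the same libraries, and Cox7a1 7.94 and 3.86 CPM. The part of the muscle RNA in the fall at 12 h was not tested. In the 1 library over 50 CPM at 12 h, BALB/c on water, Cox6a2 stood at 0.405 CPM and Cox8b at 0.221 CPM. In libraries at or under 50 CPM, the median of Cox6a2 was 0.111 CPM at 0 h (4 libraries) and 0.0833 CPM at 12 h (37 libraries).

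**Figure D4:**
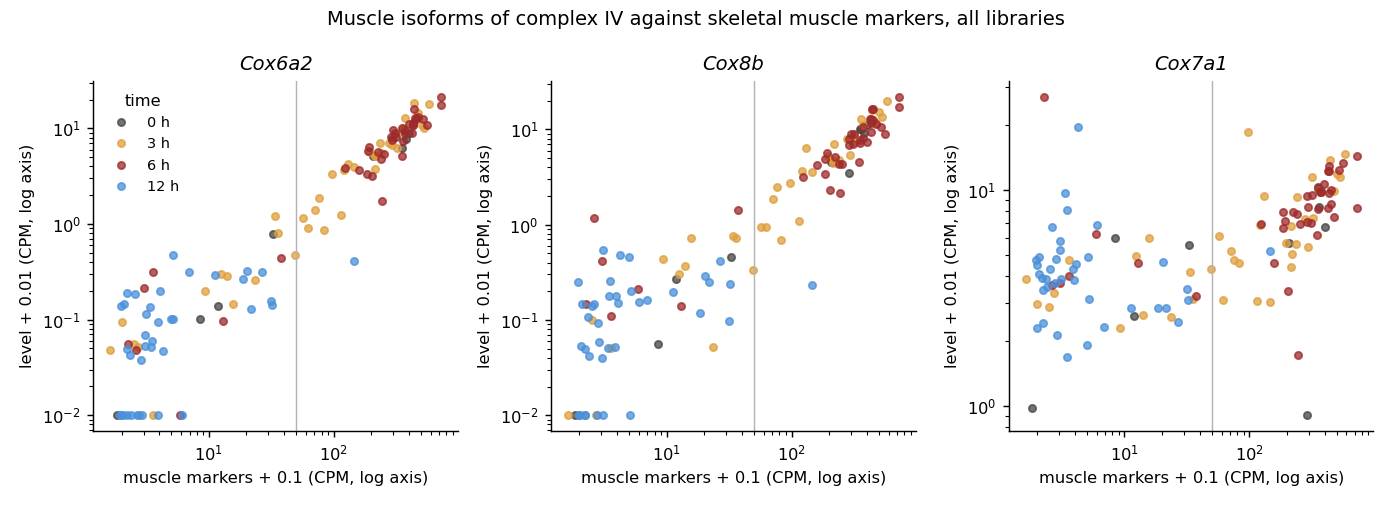
Cox6a2, Cox8b and Cox7a1 (CPM + 0.01) against the summed CPM of 14 skeletal muscle markers (+ 0.1) in every library, on log axes, coloured by hours after feeding began, with a line at 50 CPM. Of the 38 points at 12 h, 37 lie left of the line, and Cox7a1 keeps a median of 3.86 CPM there.

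More members were called between the strains than for any meal or sugar, but over more libraries. These counts therefore do not compare the sizes of effects. Over the 13 conditions, with 63 BALB/c and 65 C57BL6/J libraries, 33 nuclear members were higher and 9 lower in BALB/c, 42 of 90 beside 55.3% of all genes. Of the mitochondrial members, 0 were higher and 6 lower, and with each member summed with its closest copy 1, mt-Co3, was higher and 6 lower. The median log2 fold change of BALB/c over C57BL6/J was 0.10 for nuclear and -0.22 for mitochondrial members, beside 0.01 over all genes. Of the 4 nuclear subunits of complex II 3 were called, of the 8 of complex III 5, and of the 7 Ndufaf genes 5, all higher in BALB/c. Beside 55.3% of all genes called, these counts are no result about these complexes. The 9 lower members belong by symbol to complexes I, IV and V.

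Cox6b2 showed the largest strain difference, with 13.2 to 54.6 CPM in BALB/c (median 28.04), against 0 to 1.51 CPM in C57BL6/J (median 0.596). The ranges did not overlap, and the log2 fold change was 5.35 ± 0.11 (edgeR adjusted p = 2.47e-70). Uqcr10, a small subunit of complex III, had 173 to 704 CPM in BALB/c (median 321), against 112 to 305 CPM in C57BL6/J (median 215), and was higher in 60 of 63 libraries (log2 fold change 0.62 ± 0.05, edgeR adjusted p = 1.06e-20). Uqcrc1 (0.31 ± 0.03), Cox7b (0.31 ± 0.04), Cox8a (0.30 ± 0.05) and Atp5b (0.27 ± 0.04) were also higher, with edgeR adjusted p of 1.63e-15, 4.16e-10, 1.79e-08 and 3.17e-08. Cox4i2 and Cox7a1 were among the higher genes at low levels, with medians of 0.218 CPM in BALB/c and 0.0895 CPM in C57BL6/J for Cox4i2 and of 6.79 and 3.99 CPM for Cox7a1. The summed skeletal muscle markers also had a higher median in BALB/c, at 145 CPM, against 33.7 CPM in C57BL6/J. The part of muscle RNA in the strain difference of Cox7a1 was not tested.

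Ndufa4l2 was the nuclear member with the lowest fold change, at 0.0551 to 1.60 CPM in BALB/c (median 0.603), against 0.560 to 3.66 CPM in C57BL6/J (median 1.496), and was lower in 63 of 63 libraries (log2 fold change -1.28 ± 0.11, edgeR adjusted p = 1.65e-19). Atp5h, Ndufa6, Cox7c, Ndufa13, Ndufa3 and Atp5j were lower by less, with Atp5h at -0.35 ± 0.05 (edgeR adjusted p = 3.27e-09). The call of Ndufa13 was lost without replicate number 3.

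For Ndufa12 and Atp5g1 the direction depended on a second copy of the gene. Ndufa12 had 51.2 to 128.2 CPM in BALB/c (median 69.6), against 54.8 to 135 CPM in C57BL6/J (median 91.7), a log2 fold change of -0.38 ± 0.04 (edgeR adjusted p = 3.46e-14). The listed pseudogene Gm15920 (mm10, chromosome 5, 130188395 to 130188796) shares 20.2% of the 31-base words of the Ndufa12 transcripts. It had 27.1 to 103 CPM in BALB/c (median 50.05), against 0.149 to 1.28 CPM in C57BL6/J (median 0.461). With the counts of both summed, Ndufa12 was higher in BALB/c, at a median of 118 CPM, against 92.3 CPM in C57BL6/J (log2 fold change 0.38 ± 0.04, edgeR adjusted p = 1.84e-13). Atp5g1 and the listed pseudogene Gm10039 (mm10, chromosome 11, 100361716 to 100362126) share 7.23% of these words. The pseudogene had a median of 55.1 CPM in BALB/c, against 2.42 CPM in C57BL6/J, and Atp5g1 itself had 254 CPM, against 294 CPM (log2 fold change -0.17 ± 0.05, edgeR adjusted p = 0.00286). The sum gave a log2 fold change of 0.12 ± 0.06 (edgeR adjusted p = 0.0784). This summing was chosen after the data were seen, was done for 20 nuclear and 11 mitochondrial members with such a copy in the table, and turned the direction of Ndufa12 and Atp5g1 but of no other member called before or after it among those summed.

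Among the mitochondrial members, mt-Nd3 stood apart. It had 3.83 to 34.2 CPM in BALB/c (median 13.6), against 21.3 to 194 CPM in C57BL6/J (median 57.4), and was lower in 63 of 63 BALB/c libraries (log2 fold change -2.01 ± 0.14, edgeR adjusted p = 1.39e-25). Its copy on chromosome 1 went the other way, with 10.9 to 149 CPM in BALB/c (median 44.2), against 7.02 to 50.4 CPM in C57BL6/J (median 21.2), a log2 fold change of 1.27 ± 0.13 (edgeR adjusted p = 2.79e-15). The first 61 bases of the gene (chrM:9459-9519, plus strand, mm10) and of the copy (chr1:24613059-24613119, minus strand) are shown because they hold the 1 base that differs between both, in capitals, written T9461C from the mitochondrial gene to the copy by position on the mitochondrial genome.
mt-Nd3: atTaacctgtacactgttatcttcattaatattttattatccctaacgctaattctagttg
RP23-8J15.5: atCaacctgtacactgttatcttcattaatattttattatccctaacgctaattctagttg

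mt-Nd3 held 7.41% to 39.9% of the counts of this pair in BALB/c (median 22.3%), against 54.7% to 88.8% in C57BL6/J (median 71.5%), so the shares did not overlap. The share also moved with the letter a in the library names. In libraries with the letter its median was 10.6% in BALB/c and 86.4% in C57BL6/J, and in those without it 26.7% in BALB/c and 67.0% in C57BL6/J. Summed with its copy, mt-Nd3 had a log2 fold change of -0.30 ± 0.11 (edgeR adjusted p = 0.0175), close to those of its genome. mt-Co3, whose copy is identical over all 783 aligned bases, held 37.5% to 45.9% of its pair in BALB/c and 48.7% to 52.0% in C57BL6/J. Its own log2 fold change was 0.12 and did not pass the test, while the copy's was 0.53 ± 0.13 (edgeR adjusted p = 0.000417). Summed with its copy, mt-Co3 was higher in BALB/c (log2 fold change 0.34 ± 0.13, edgeR adjusted p = 0.0279).

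**Figure D5:**
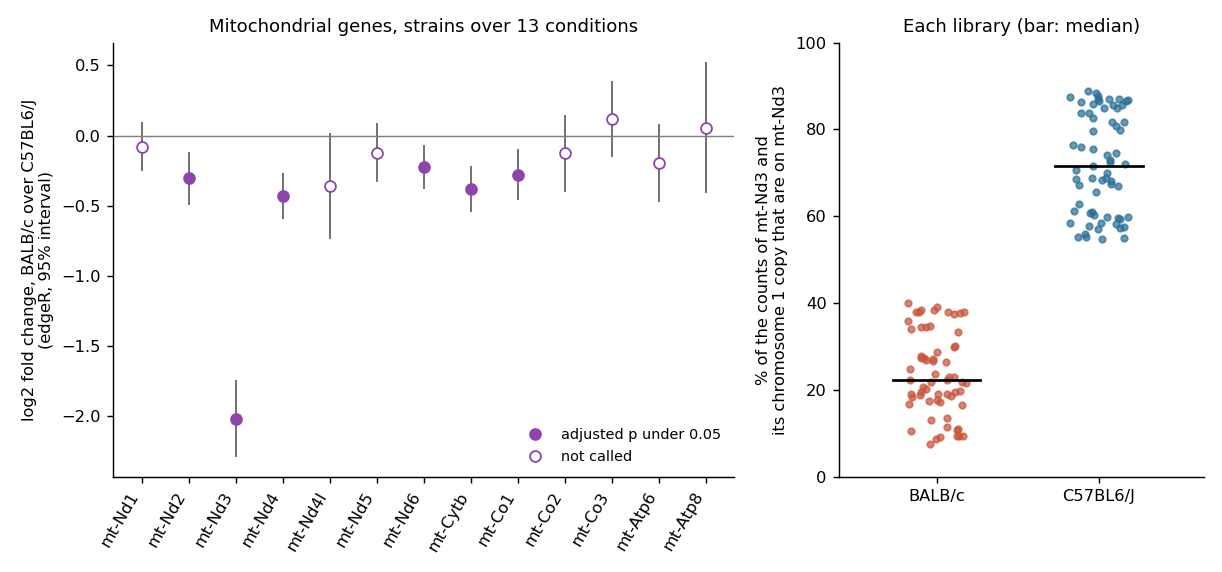
Log2 fold change of BALB/c over C57BL6/J for the 13 mitochondrially encoded members with 95% intervals, and the percentage of the counts of mt-Nd3 and its chromosome 1 copy that are on mt-Nd3 in each library, with the median as a bar. The mt-Nd3 fold change of -2.01 lies far below the others, and the BALB/c shares all lie below the C57BL6/J shares.

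The other 5 mitochondrial calls were smaller, and each passed the test as well with its closest copy summed. mt-Nd4 had 2602 to 10049 CPM in BALB/c (median 4800.04), against 3055 to 14491 CPM in C57BL6/J (median 6431), with overlapping ranges (log2 fold change -0.43 ± 0.08, edgeR adjusted p = 4.59e-06). mt-Cytb had a log2 fold change of -0.38 ± 0.08 (edgeR adjusted p = 4.63e-05), mt-Nd2 of -0.30 ± 0.09 (0.00412), mt-Co1 of -0.28 ± 0.09 (0.00635) and mt-Nd6 of -0.22 ± 0.08 (0.0126). In the libraries without the letter a, mt-Nd2 (edgeR adjusted p = 0.0689), mt-Co1 (0.0523) and mt-Nd6 (0.111) were no longer called, and mt-Nd6 was also lost without replicate number 4 or 5. Summed, the mitochondrial members took a median of 4.88% of counts in BALB/c and 5.74% in C57BL6/J, and the nuclear ones 2.11% and 1.93%. The log2 ratio of the mitochondrial to the nuclear sum averaged 1.32 ± 0.42 over the BALB/c libraries and 1.67 ± 0.49 over the C57BL6/J libraries (SD), and its group mean was lower in BALB/c in 13 of 13 conditions, a mean difference of -0.35.

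Genes that build and express the complexes were followed in separate lists, which were not tested against the members. Their counts on water stand beside 25.4%, 28.8% and 17.6% of all genes called at 3, 6 and 12 h, and a share near these is no result about a list. Of 34 other assembly factors tested, 11 rose and 1 fell at 3 h on water, 10 rose and 3 fell at 6 h, and 0 rose and 5 fell at 12 h. Cox18, which inserts a complex IV subunit into the membrane, had a median of 14.5 CPM at 3 h, against 10.3 CPM at 0 h (log2 fold change 0.47 ± 0.09, edgeR adjusted p = 1.02e-05). Bcs1l, which completes complex III, had 17.0 CPM, against 11.7 CPM (0.48 ± 0.10, edgeR adjusted p = 4.3e-05). Of 76 mitochondrial ribosomal protein genes, 19 rose and 1 fell at 3 h, 32 rose and 1 fell at 6 h, and 2 rose and 6 fell at 12 h, with medians of 0.06, 0.24 and -0.06 on the log2 scale beside -0.01, -0.00 and -0.01 over all genes. The 20 of 76 called at 3 h are about the share of all genes. Of 81 cytosolic ribosomal protein genes, 2 rose and 1 fell at 3 h, 13 rose at 6 h, and 1 fell at 12 h.

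The calls among the lists for mitochondrial DNA and biogenesis at 3 h, 5 of 18 and 4 of 14, were also near the 25.4% of all genes. Of 18 genes for replication and transcription of mitochondrial DNA, 3 rose and 2 fell at 3 h, 2 rose and 4 fell at 6 h, and 5 rose and 1 fell at 12 h. Mgme1, a nuclease for mitochondrial DNA, had a median of 11.4 CPM at 3 h, against 5.71 CPM at 0 h (log2 fold change 0.90 ± 0.12, edgeR adjusted p = 3.69e-09). Polg2, the accessory subunit of the mitochondrial DNA polymerase, had 6.34 CPM, against 10.8 CPM (-0.69 ± 0.12, edgeR adjusted p = 4.46e-06). Of 22 genes for mitochondrial RNA processing, 8 rose and 0 fell at 3 h, 4 rose and 3 fell at 6 h, and 1 rose and 3 fell at 12 h. Of 14 regulators of mitochondrial biogenesis, 0 rose and 4 fell at 3 h, 1 rose and 6 fell at 6 h, and 2 rose and 5 fell at 12 h. Ppargc1a, the coactivator PGC-1alpha, had 2.65 to 7.12 CPM at 3 h (median 4.53), against 5.70 to 92.5 CPM at 0 h (median 16.7), with a log2 fold change of -2.18 ± 0.26 (edgeR adjusted p = 2.48e-11). Its log2 fold change was -1.71 ± 0.25 at 6 h and -0.79 ± 0.25 at 12 h (edgeR adjusted p = 2.98e-08 and 0.0145). In the same libraries, 84 of the 90 nuclear members and all 13 mitochondrial members were not called at 3 h. A missing call does not show a level unchanged, and a link of the members to Ppargc1a was not tested.

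Genes that feed electrons into the chain were also followed as lists, and no list was tested against all genes. Of 30 electron carriers and partners of ubiquinone or cytochrome c, 3 rose and 1 fell at 3 h, 6 rose and 2 fell at 6 h, and 2 rose and 3 fell at 12 h, that is 4 of 30 beside 25.4% at 3 h and 8 of 30 beside 28.8% at 6 h. Adck3, which acts in ubiquinone synthesis, had a median of 312 CPM at 6 h, against 172 CPM at 0 h (log2 fold change 0.99 ± 0.13, edgeR adjusted p = 2.66e-10), and Cycs, which encodes cytochrome c, had 224 CPM, against 149 CPM (0.61 ± 0.11, edgeR adjusted p = 1.68e-06). Of 18 genes of the tricarboxylic acid cycle, 1 rose at 3 h, 2 rose and 2 fell at 6 h, and 1 rose and 4 fell at 12 h. Cs, citrate synthase, rose at 3, 6 and 12 h with log2 fold changes of 0.45 ± 0.09, 0.70 ± 0.09 and 0.52 ± 0.09 (edgeR adjusted p = 6.04e-05, 1.35e-09 and 6.12e-06). Of 24 genes of mitochondrial import and of its unfolded protein response, 3 rose and 1 fell at 3 h, 6 rose and 4 fell at 6 h, and 2 rose and 6 fell at 12 h.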

How the data were processed

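The authors deposited read counts per gene for every liver library and FPKM per library. The deposited FPKM equals the count per kilobase of listed gene length, scaled to the summed counts of the library, in 100% of values, at a relative tolerance of 1e-06. CASAVA, STAR 2.5, HTSeq 0.6.1, DESeq2 and mm10 (GRCm38) are named in the submitters' processing notes, and the strand setting and the treatment of reads with several matches are not given in the sources used here. All per-library columns of both tables were matched to samples by name, and 0 were left unused.

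Counts were tested with edgeR 4.0.16 (R 4.3.3, limma 3.58.1): TMM scaling (factors 0.80 to 1.23), the default filter on low counts, which kept 16886 genes, 26 group means in 1 quasi-likelihood fit, and Benjamini-Hochberg adjustment over all genes per comparison. A gene was called at an adjusted p under 0.05. CPM are counts scaled to the TMM library size. Contrasts averaged both strains with equal weight. Intervals cover the spread between libraries, and the limit for a count of 0 (3 counts) covers counting error only. The fit was tested on simulated counts.

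Members, gene lists, tests and most alternatives were chosen with earlier results of these data known. Genes were named by rule: the 13 mitochondrial genes, the isoform families, up to 6 called nuclear members with the highest and 6 with the lowest fold change per comparison, the nuclear member with the highest mean FPKM per complex, up to 3 called genes with the smallest p per other list, and a feeding panel. Other members called between 12 and 3 h or between strains were named after their values were seen.

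No libraries were identical, and over 252 replicate pairs the chi-square divided by its degrees of freedom was at least 17.6. Replicate numbers are shared by the groups. Same-numbered libraries deviated together (correlation over 0.1) in 127 of 219 pairs, with a median correlation of 0.129, against -0.039 for other numbers. Every pair was over 0.1 only for glucose against water at 12 h (9 of 9). The main tests held no replicate term in any comparison, so a partial likeness of same-numbered libraries is left in their spread. The alternatives were DESeq2 1.42.0, other scalings, no low-count filter, a replicate block, the name letter as a covariate or only libraries without it, only the libraries of a comparison, and each replicate number left out. Chosen after the data were seen were leaving out 4 libraries nearer another feeding time or 7 with kidney, adrenal or pancreas markers (over 100, 100 and 1000 CPM), summing each member with its closest copy, and a mitochondrial sum without the copied genes. Promoters are from RefSeq (GRCm38.p6). Copies were found by shared 31-base words of annotated transcripts (GENCODE M21).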

Additional observations from a re-analysis of the deposited data

Results flagged for a closer look

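In groups of 4 or 5 libraries, a library was taken as far from the others where its gap to the nearest, over the range of the group, passed Dixon's 95% critical value. Of 102 tests of 1 measure in 1 group, over the sums, their ratio and selected members, 15 gave such a library. A rate of about 1 in 20 by chance holds only for independent normal values. The ratio is built from the sums and CPM were not log-transformed, so the 15 are not read as an excess.

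The mitochondrial sum was far above the rest of its group in 6 libraries. It reached 95815 CPM in BALB/c fructose at 3 h, replicate 4, where the others lay at 38275 to 46091 CPM. In BALB/c glucose at 6 h, replicate 2, it was 124427 CPM (others 43215 to 66536). In BALB/c sucrose at 3 h, replicate 4, it was 68280 CPM (others 34313 to 43114). In C57BL6/J glucose at 12 h, replicate 4, it was 125147 CPM (others 43492 to 60116). C57BL6/J glucose at 6 h, replicate 5, had the highest of these, at 166727 CPM (others 54427 to 67774), and also carried adrenal markers at 302 CPM, whose part in the sum was not tested. C57BL6/J water at 12 h, replicate 4, had 138782 CPM (others 56392 to 66763).

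The nuclear sum was far above the rest in BALB/c fructose at 6 h, replicate 4, at 39099 CPM (others 17956 to 23776), a library whose profile lay nearer 12 h. It was also high in C57BL6/J sucrose at 3 h, replicate 3, at 24500.0 CPM (others 17001 to 19160), where the log2 ratio of the mitochondrial to the nuclear sum was lowest, at 0.607 (others 1.497 to 1.856). The ratio was highest in BALB/c glucose at 6 h, replicate 2, at 2.52 (others 1.302 to 1.592), and in C57BL6/J glucose at 6 h, replicate 5, at 3.13 (others 1.64 to 2.04).

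Atp5sl was highest in replicate 4 of both strains on water at 3 h, with 56.7 CPM in BALB/c (others 31.1 to 38.1) and 41.5 CPM in C57BL6/J (others 26.3 to 29.8), and lowest in C57BL6/J water at 12 h, replicate 2, with 43.6 CPM (others 55.9 to 60.5). Cox7a2l was lowest in C57BL6/J water at 12 h, replicate 1, with 87.2 CPM (others 95.3 to 97.8).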

How the results depend on the processing

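Over all alternatives run, 514 counts of members called stayed within 1.5 times the count reported and 28 did not. Many of the 514 were 0 in both fits. Of the values of named genes, 714 kept their direction and their side of the threshold, 35 missed the threshold and 1 reversed. All 44 values of the ratio moved by less than 0.486, the median within-group SD. That SD exceeds each difference checked, the largest being -0.35 between the strains, so this could not show whether they hold. With each replicate number left out in turn, the nuclear count ran from 6 to 21 for water at 6 h, from 0 to 1 for fructose at 3 h and at 6 h, and the mitochondrial count from 0 to 1 at 12 h against 3 h. With the replicate number as a block, the nuclear count was 7 for water at 12 h, 1 for glucose and 1 for sucrose at 6 h and 2 for fructose at 6 h, and the mitochondrial count was 2 at 12 h against 3 h. The block changed no other count by over 1.5 times, and 111 of 219 libraries correlated best with their own number. DESeq2 called 1 nuclear member for sucrose at 3 h and 1 for glucose at 6 h. With only the libraries of the comparison, the nuclear count was 1 for sucrose at 3 h, 2 for fructose at 3 h and 2 for sucrose at 6 h, and the mitochondrial count was 1 at 12 h against 3 h. The name letter as a covariate gave 1 nuclear member for glucose at 6 h. Libraries without the letter gave 0 for fructose at 6 h and 15 at 12 h against 3 h, and no low-count filter gave 0 for fructose at 6 h. Of the alternatives chosen after the data were seen, leaving out the 4 libraries nearer another time gave 2 for fructose at 6 h. Leaving out the 7 libraries with other tissues' markers gave 1 for sucrose at 3 h, 2 for fructose at 3 h and 0 for fructose at 6 h. Summing Ndufa12 with its copy turned its strain log2 fold change to 0.38. The strain value of Atp5g1, not counted among the named values above, also turned, to 0.12, and missed the threshold. The cause of these changes was not tested, except that leaving out a replicate leaves fewer libraries. Depth limits the members with few reads, and the spread between libraries limits the mitochondrial members.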
